A study of Mus musculus and Homo sapiens with 14 samples.

Results

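Interferon-stimulated genes are the genes that cells switch on after sensing an interferon, and the set described here holds 39 of them, chosen as a list of symbols by a rule that uses no measured value, though with earlier results of these data known. All 39 were found among 26221 named genes of the mouse count table and, under the same symbols in capitals, among 27945 named genes of the human one. Type I interferons bind the receptor pair IFNAR1 and IFNAR2, whose kinases JAK1 and TYK2 pass the signal to STAT2 among other proteins. STAT2 acts with IRF9 in a complex that binds the interferon-stimulated response element (ISRE) in promoters. Interferon gamma acts through a separate receptor and leads to binding at the gamma-activated site (GAS). IRF4 and IRF8, relatives of IRF9, bind ISRE-like elements too, or join PU.1 on composite elements (EICE), and IRF4 is needed for plasma cells to form.

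The series profiled RNA of plasma cells with IRF4 intact or targeted, in 14 libraries of 8 groups. In the mouse arm, bone marrow that was Irf4 flox/- or Irf4 flox/+ was mixed with uMT marrow, which cannot make mature B cells, and placed in congenically marked hosts. Both arms received tamoxifen on days 1, 2, 7 and 8, and donor plasma cells were sorted from spleen on day 14, with 2 libraries per genotype. The Cre driver, the age and the number of animals per library are not given in the sources used here, and both genotypes carry a floxed allele, so neither is a wild type. In the cell line arm, Cas9 came with a guide RNA against IRF4 (genotype label Irf4 -/-) or with an empty vector (label WT), followed by doxycycline and a sort on day 3, with 2 libraries per condition. The lines were MPC-11, a plasmacytoma of mouse, and MM.1S, a multiple myeloma of human origin. One library each of follicular B cells from spleen and of bone marrow plasma cells, both labelled WT, served as references. All mouse libraries carry the strain label C57BL/6, MPC-11 included. Nothing in the labels says whether paired libraries came from separate animals or cultures, so p-values measure only the spread between these libraries, which may be technical.

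Mouse libraries held 18738283 to 27003585 counts and human ones 19317115 to 21572315. Values below are CPM, counts scaled to library size after TMM normalisation within one comparison, so they are read within a comparison and not between genes. The targeted gene came first. In spleen, Irf4 was at 82.6 and 99.8 CPM in the libraries labelled flox/- and at 114 and 53.8 CPM in those labelled flox/+, which differed by 0.12 ± 0.43 on the log2 scale (± SE, with n = 2 in each group here and below), so the gene count did not separate the genotypes. Which exons the floxed allele removes is not given in the sources used here, and reads from the rest of the gene would check nothing. The splenic groups are therefore named by their labels throughout. In MPC-11, Irf4 was at 276 and 146 CPM with the guide and at 467 and 496 CPM with empty vector. In MM.1S, IRF4 was at 142 and 191 CPM with the guide and at 489 and 434 CPM with empty vector. In both lines the guide libraries were the lower ones without overlap, with log2 fold changes of -1.19 ± 0.37 and -1.47 ± 0.22. Guide cutting need not lower the transcript, so these values bear on the labels and not on the protein.

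Promoter sequences of the set come first, since ISRE and IRF elements lie there. RefSeq's mouse promoters (build GRCm38.p6, 250 bases before to 50 after a start) were matched for 30 of the 39 members. The ISRE core, GAAA, any 2 bases and GAAA, searched on both strands, lay in 13 of the 30 (43.3%), against 3.99% of 27025 genes with a promoter. Those 13 were Bst2, Ddx58, Eif2ak2, Gbp2, Gbp3, Ifih1, Ifit1, Ifit3, Isg15, Oas3, Rsad2, Stat2 and Trim21. The EICE core, GGAA, any 2 bases and GAAA, which can overlap an ISRE, lay in 5 of the 30 (16.7%, against 3.16% of genes): Adar, Dtx3l, Ifi44, Stat2 and Trim25. The GAS core TTCNNNGAA, its own reverse complement, lay in 6 (20%, against 9.55% of genes). A match is a run of letters and not a measured binding site. No promoter was used for Dhx58, Oas2, Mx1, Mx2, Usp18, Parp9, Parp14, Rtp4 and Tap2. Shown are the 250 bases upstream of the start, 5′ to 3′ on the gene's strand, for 4 members named in the comparisons below that hold an ISRE, whose letters are in capitals.
Isg15, chr4:156200819-156201068 (minus strand): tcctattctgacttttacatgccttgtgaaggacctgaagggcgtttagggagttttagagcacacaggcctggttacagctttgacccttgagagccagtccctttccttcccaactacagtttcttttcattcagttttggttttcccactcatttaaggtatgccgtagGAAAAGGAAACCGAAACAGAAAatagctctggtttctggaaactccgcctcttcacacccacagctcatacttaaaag
Ifit1, chr19:34640639-34640888 (plus strand): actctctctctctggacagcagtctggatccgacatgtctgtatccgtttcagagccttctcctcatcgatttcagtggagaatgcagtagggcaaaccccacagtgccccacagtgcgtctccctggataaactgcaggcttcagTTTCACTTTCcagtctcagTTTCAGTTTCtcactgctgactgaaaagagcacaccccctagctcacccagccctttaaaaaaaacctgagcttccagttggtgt
Rsad2, chr12:26456453-26456702 (minus strand): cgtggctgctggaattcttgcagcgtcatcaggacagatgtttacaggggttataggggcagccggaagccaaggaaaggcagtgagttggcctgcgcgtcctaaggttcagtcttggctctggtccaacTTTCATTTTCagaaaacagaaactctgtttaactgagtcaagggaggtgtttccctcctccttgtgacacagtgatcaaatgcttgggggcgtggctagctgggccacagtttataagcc
Gbp2, chr3:142620413-142620662 (plus strand): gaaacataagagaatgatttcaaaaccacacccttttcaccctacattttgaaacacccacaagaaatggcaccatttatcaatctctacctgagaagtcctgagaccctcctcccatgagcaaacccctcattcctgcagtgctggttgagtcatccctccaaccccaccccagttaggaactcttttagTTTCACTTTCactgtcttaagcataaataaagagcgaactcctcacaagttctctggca
Isg15 carried 3 overlapping ISRE matches, with first bases 78, 72 and 66 bases before the start. Ifit1 carried 2, starting 104 and 85 bases before it, both on the opposite strand. The match of Rsad2 started 120 bases and that of Gbp2 59 bases before the start, again on the opposite strand.

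More of the members were higher than lower with the flox/- label or the guide in each of the 3 comparisons, which share no library. Libraries with that label or guide are called targeted below, after the design and not the Irf4 count. No single member passed edgeR's threshold in any comparison. In spleen all 39 members could be tested, 33 were higher in the libraries labelled flox/- (84.6%, against 54.3% of 11887 genes tested) and 6 were lower. The median log2 fold change of the members was 0.70, also with Rsad2 set at its lower bound, and that of all genes was 0.09. In MPC-11, 21 of the 39 passed the filter on low counts, and 15 of those were higher with the guide (71.4%, against 48.5% of 10670 genes) and 6 lower, with a median of 0.42 against -0.02 for all genes. A gene can pass that filter through its high group alone, so these 21 do not stand for the set. In MM.1S, 38 of the 39 were tested, 28 were higher (73.7%, against 50.7% of 12696 genes) and 10 lower, with a median of 0.38 against 0.01. 

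The number of members past edgeR's adjusted threshold of 0.05 was 0 in each comparison, against 0%, 0.0187% and 0.00788% of all genes in spleen, MPC-11 and MM.1S. At an unadjusted p under 0.05, 7 members were higher and 0 lower in spleen (17.9% higher, against 8.63% of all genes, and 3.85% of genes lower). In MPC-11 7 were higher and 1 lower (33.3% of those tested, against 3.49% higher and 2.56% lower of all genes). In MM.1S 7 were higher and 0 lower (18.4%, against 5.42% higher and 4.58% lower). These counts also moved with the scaling. With library size alone they were 16 in spleen (41.0%, against 25.6% of all genes), 3 in MPC-11 (14.3%, against 2.01%) and 7 in MM.1S. They leaned on single libraries too. Without the first flox/- library 3 splenic members were higher at that p (7.69%, against 3.07% of all genes) and without flox/+ library a 15 (38.5%, against 14.7%). Without the first vector library of MM.1S there were 18 (46.2%, against 15.2%), and without the second guide library 1 (2.63%, against 1.88%). DESeq2, the alternative test, called 4 members higher in spleen, 3 in MPC-11 and 2 in MM.1S and none lower, against 3.82%, 1.08% and 1.46% of all genes called higher and 1.43%, 0.466% and 1.29% called lower. In 20 of 39 splenic members, both libraries labelled flox/- lay above both labelled flox/+ (51.3%, against 25.7% of all genes), and 1, Isg20, lay wholly below (18.3% of genes). The guide libraries lay wholly above in 11 of 21 members in MPC-11 (52.4%, against 16.9%) and wholly below in 2 (16.5% of genes). In MM.1S they lay wholly above in 18 of 38 (47.4%, against 22.4%) and wholly below in 4 (18.9% of genes).

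**Figure D1:**
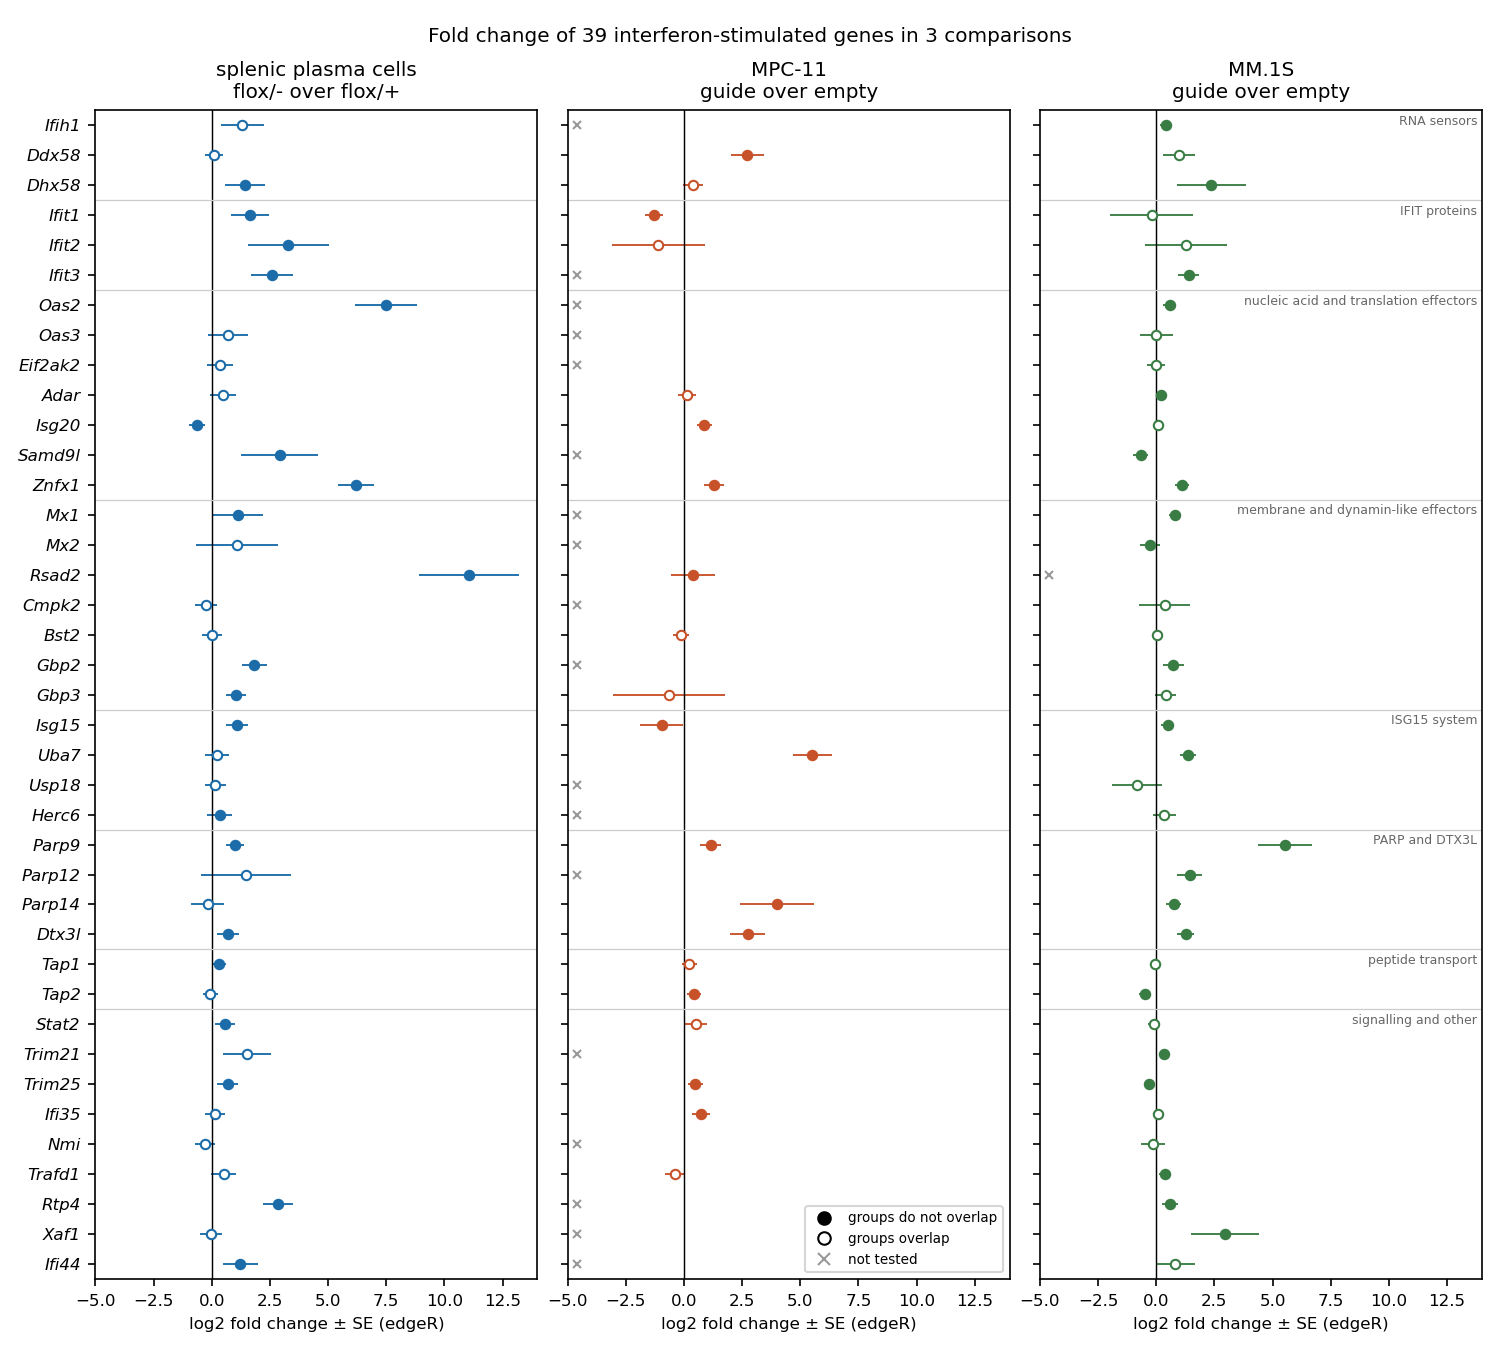
Log2 fold change (x axis, targeted over control, edgeR, bars are SE) of each of the 39 genes (y axis, ordered by role) in spleen, MPC-11 and MM.1S, with 2 libraries per group. Filled points mark genes whose groups do not overlap (20 higher in spleen, 11 in MPC-11, 18 in MM.1S), crosses mark genes not tested, and the fitted value of Rsad2 in spleen, whose flox/+ libraries hold no count, depends on the model's prior count.

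In splenic plasma cells the labels were separated by Znfx1, an RNA helicase that binds double-stranded viral RNA at mitochondria. Znfx1 was at 33.2 and 33.9 CPM in the libraries labelled flox/- and at 0.760 and 0.159 CPM in those labelled flox/+, a log2 fold change of 6.19 ± 0.78 (edgeR adjusted p = 0.26, DESeq2 adjusted p = 1.51e-13). Both flox/- libraries agreed within 1 CPM, and both flox/+ libraries were close to 0. The gene spans chr2:167035790-167063015 on the minus strand of GRCm38.p6 and overlaps the non-coding Zfas1 on the other strand. Fitted together with all 10 mouse libraries, Znfx1 passed edgeR as well, with an adjusted p of 0.047, and over all alternatives its adjusted p ran from 1.51e-13 to 0.318.

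Oas2, which makes the 2-5A signal that activates RNase L, was at 5.07 and 6.99 CPM with the flox/- label and at 0.0585 and 0 CPM with flox/+ (DESeq2 adjusted p = 5.03e-04, range over alternatives 5.03e-04 to 0.482). Rsad2, which encodes viperin, an enzyme that makes a chain-terminating nucleotide, was at 18.9 and 2.41 CPM with flox/- and had no count with flox/+. It was at least 129-fold higher, taking 3 counts over the flox/+ group as the floor, and the first flox/- library held most of it (DESeq2 adjusted p = 1.53e-05, range 1.53e-05 to 0.966). Rtp4, a transmembrane protein that dampens STING and RNA virus sensing, was at 15.5 and 9.75 CPM against 2.16 and 1.32 CPM, a log2 fold change of 2.85 ± 0.63 (DESeq2 adjusted p = 0.00245, range 0.00245 to 1.00). These 4 genes are the ones DESeq2 called in spleen, and none had overlapping groups.

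The IFIT proteins, which bind viral RNA 5′ ends and block its translation, were all higher in both libraries labelled flox/-. Ifit1 was at 10.7 and 6.05 CPM against 1.29 and 4.08 CPM. Ifit2 was at 8.97 and 3.04 CPM against 1.23 and 0 CPM, and Ifit3 at 29.4 and 5.55 CPM against 2.28 and 3.55 CPM. Their log2 fold changes were 1.64 ± 0.81, 3.29 ± 1.75 and 2.58 ± 0.90, and the first flox/- library was again the higher one of its pair in each. Among the cytoplasmic RNA sensors, Ifih1 (MDA5) stood at 8.57 and 2.79 CPM against 3.22 and 1.32 CPM, with overlap. Ddx58 (RIG-I) differed by 0.11 ± 0.38 and Dhx58 (LGP2) by 1.43 ± 0.86 on the log2 scale.

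Of the membrane and dynamin-like effectors, Gbp2, a guanylate-binding GTPase that attacks pathogen vacuoles, was at 26.4 and 16.1 CPM with flox/- and at 7.84 and 4.13 CPM with flox/+ (log2 fold change 1.83 ± 0.54, edgeR adjusted p = 0.286). Its relative Gbp3 differed by 1.05 ± 0.43. Mx1 was near its detection limit, at 1.98 and 0.784 CPM against 0.526 and 0.741 CPM, and RefSeq lists both Mx1 and Mx2 as transcribed pseudogenes in this build. Bst2 (tetherin, which holds budding virions to the cell surface) stood at 137 and 64.3 CPM against 101 and 97.5 CPM, with a difference of 0.02 ± 0.43. Cmpk2, the neighbour of Rsad2 on chromosome 12, differed by -0.26 ± 0.47, at 11.8 and 15.5 CPM against 11.5 and 21.1 CPM, and Mx2 by 1.09 ± 1.76 with overlap.

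Among the other nucleic acid and translation effectors, Samd9l, a restriction factor, was at 9.74 and 9.78 CPM against 0 and 2.54 CPM (2.93 ± 1.66). Oas3, Eif2ak2 (PKR) and the editing enzyme Adar had overlapping groups and differences of 0.37 to 0.70. Isg20, an exonuclease, was the 1 member wholly lower, at 128 and 85.5 CPM against 145 and 183 CPM (-0.62 ± 0.35), though not with library size alone as the scaling. In the ISG15 system, Isg15, the ubiquitin-like modifier, was at 14.0 and 11.9 CPM against 6.55 and 5.72 CPM (1.08 ± 0.47), while its activating enzyme Uba7, its ligase Herc6 and its protease Usp18 differed by 0.15 to 0.35. Parp9 was at 18.3 and 17.6 CPM against 8.832 and 9.0003 CPM (1.01 ± 0.40), its partner Dtx3l differed by 0.70 ± 0.48, and Parp12 and Parp14 overlapped.

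The peptide transporter genes hardly differed. Tap1 was at 145 and 183 CPM against 128 and 138 CPM (0.31 ± 0.30) and Tap2 differed by -0.05 ± 0.33. Stat2 was at 28.4 and 25.3 CPM against 12.98 and 23.5 CPM (0.56 ± 0.42). Of the remaining signalling members, Ifi44 and Trim25 were wholly higher at 1.22 and 0.68, Trim21, Trafd1 and Ifi35 overlapped at 1.52, 0.52 and 0.15, and Nmi and Xaf1 overlapped at -0.28 and -0.03. With library size alone as the scaling, the median of all splenic genes moved from 0.09 to 0.98 and that of the members from 0.70 to 1.55, and all 39 members were then higher, as were 90.5% of all genes.

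Some lists of markers of other cells moved with the same libraries. Of all genes tested in spleen, 25.7% were wholly higher with the flox/- label and 18.3% wholly lower. On one scale over the 10 mouse libraries, the 11 markers of macrophages and monocytes gave sums of 9387 and 948 CPM in the libraries labelled flox/- and of 719 and 310 CPM in those labelled flox/+. Of these 11, 9 were wholly higher. The 10 T cell markers summed to 207 and 523 CPM against 16.3 and 41.5 CPM (8 of 10 wholly higher), and 8 NK cell markers to 47.5 and 131 CPM against 13.6 and 22.0 CPM (3 of 8). The 6 erythroid markers summed to 828 and 45.0 CPM against 42.4 and 4.89 CPM (3 of 6). The 8 plasmacytoid dendritic cell markers, Bst2 and Irf8 among them, summed to 690 and 552 CPM against 512 and 570 CPM. Of these 8, 3 were wholly higher in flox/- (Siglech, Ccr9 and Irf8) and 2 wholly lower (Tcf4 and Cox6a2). The NK cell, erythroid and plasmacytoid dendritic cell lists are short, and counts of 3 say little beside the shares of all genes.

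Of the 7 plasma cell markers 6 were wholly lower with the flox/- label, against 18.3% of all genes tested. This list summed to 36142 and 33383 CPM against 78991 and 98845 CPM, and immunoglobulin genes took 56.3% and 52.8% of counts against 72.2% and 73.4%. B cell markers summed to 2149 and 2796 CPM against 2013 and 2608 CPM. The part of these other cells in the splenic values was not tested. In bulk RNA, fewer cells of a type and less RNA per cell cannot be told apart. Without the first flox/- library, which held the high macrophage and erythroid sums, 31 members were higher (79.5%, against 54.6% of all genes) with a median of 0.53, and leaving out any 1 splenic library gave 31 to 32 higher and a median of 0.53 to 1.18. In the flox/- library that remained, Znfx1 was at 33.9 CPM, Oas2 at 6.99 CPM and Rsad2 at 2.41 CPM. That library held the higher T cell, NK cell and B cell sums of its pair, 523, 131 and 2796 CPM. Its macrophage and monocyte sum, 948 CPM, was still above those of both flox/+ libraries. Leaving out a library thus does not take other cells out of the comparison.

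**Figure D2:**
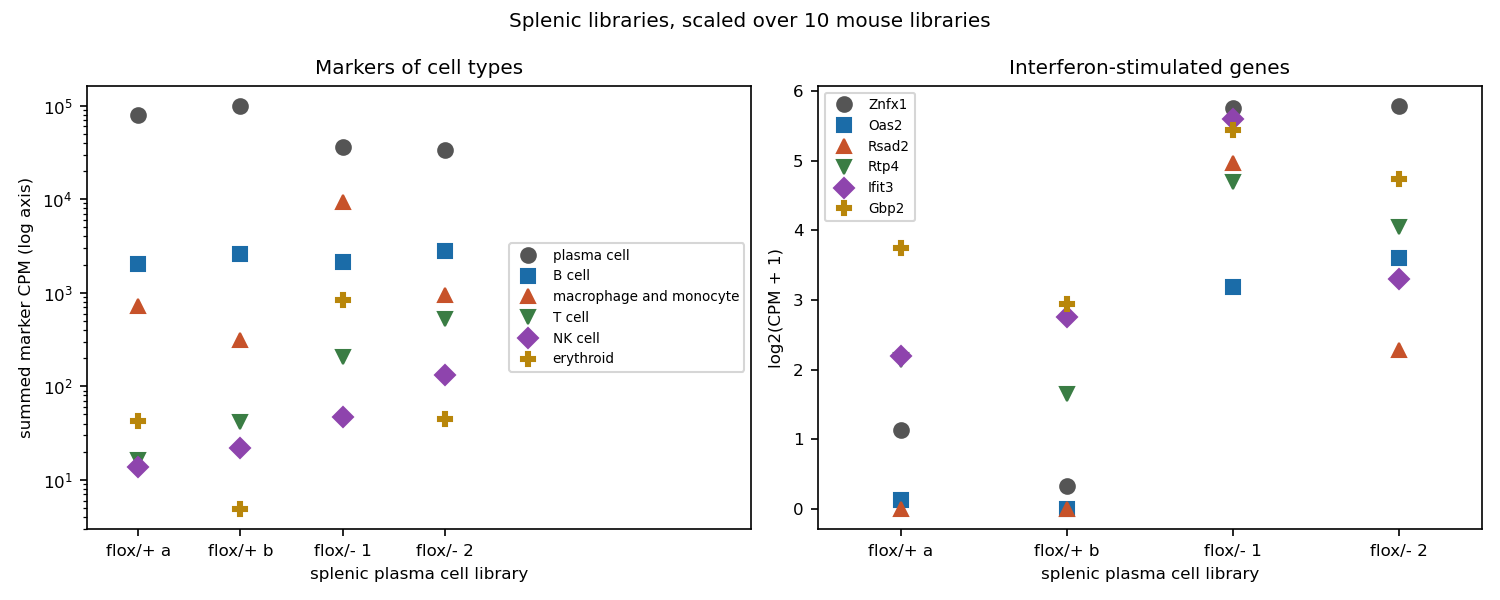
Left, summed CPM (log axis) of marker genes of 6 cell types in the 4 splenic libraries; right, log2(CPM + 1) of 6 members, each point 1 library. The macrophage sum runs from 310 CPM in flox/+ b to 9387 CPM in flox/- 1, while Znfx1 is about level in both flox/- libraries and Rsad2, Ifit3 and Gbp2 peak in flox/- 1 (the point of Rtp4 in flox/+ a lies behind that of Ifit3).

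In MPC-11 the highest fold belonged to Uba7, the E1 enzyme that charges ISG15. Uba7 was at 48.3 and 18.1 CPM with the guide and at 1.08 and 0.388 CPM with empty vector, a log2 fold change of 5.51 ± 0.84 (edgeR adjusted p = 0.195, DESeq2 adjusted p = 1.60e-09, range over alternatives 1.60e-09 to 0.342). Both guide libraries were far above both vector libraries. Uba7 lies at chr9:107975567-107984056 on the plus strand and overlaps the annotated Gm20661 on the same strand. Its substrate Isg15 went the other way, at 1.61 and 4.44 CPM with the guide and 4.61 and 7.16 CPM with vector (-0.96 ± 0.92).

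The 3 PARP and DTX3L members that were tested were wholly higher with the guide, as were 16.9% of all genes. Parp12, the other member of this group, had no count in this line. DTX3L is an E3 ubiquitin ligase that works in a complex with PARP9, and PARP14 is an ADP-ribosyltransferase. Dtx3l was at 52.9 and 39.8 CPM against 2.33 and 11.6 CPM (2.73 ± 0.74, DESeq2 adjusted p = 0.0206, range 0.0206 to 1.00). Parp9 was at 49.8 and 28.5 CPM against 14.2 and 21.3 CPM (1.14 ± 0.47). Parp14 was at 5.99 and 10.97 CPM against 0 and 1.03 CPM (3.99 ± 1.602), so its control level rests on few reads. It could pass the filter on low counts through the guide libraries alone. Parp9 (chr16:35938470-35972621, plus strand) and Dtx3l (chr16:35926515-35939027, minus strand) overlap at their 5′ ends, and whether reads were counted by strand is not given in the sources used here, so reads in the overlap cannot be assigned to one of them.

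Ddx58 (RIG-I), which showed no gap in spleen, was at 48.4 and 30.3 CPM with the guide and at 2.33 and 9.48 CPM with vector (2.73 ± 0.72, DESeq2 adjusted p = 0.0193, range 0.0193 to 1.00). Dhx58 differed by 0.38 ± 0.44. Znfx1 was at 116 and 54.7 CPM against 35.1 and 35.8 CPM (1.27 ± 0.43). Isg20 was higher at 0.86 ± 0.32 and Adar differed by 0.12 ± 0.39. Ddx58, Dtx3l and Uba7 are the members DESeq2 called in MPC-11. Without the second vector library Dtx3l passed edgeR (adjusted p = 0.0428), and without the second guide library Uba7 did (adjusted p = 0.00249).

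Ifit1 was the member most clearly lower in MPC-11, at 17.4 and 13.9 CPM with the guide and at 36.3 and 40.1 CPM with vector (-1.29 ± 0.40, edgeR adjusted p = 0.595). Ifit2 was at 1.66 and 0 CPM against 0.398 and 3.19 CPM, and Ifit3 had counts with the guide alone, at 1.01 and 0.0562 CPM. Bst2 was at 146 and 164 CPM against 210 and 126 CPM (-0.12 ± 0.34) and Tap1 at 69.1 and 85.0 CPM against 57.6 and 73.7 CPM (0.23 ± 0.33). Tap2, Trim25 and Ifi35 were wholly higher at 0.42, 0.49 and 0.72. Stat2 was at 43.1 and 21.8 CPM against 21.9 and 23.2 CPM (0.52 ± 0.46). Rsad2 and Gbp3 stood under 6 CPM in every library, and Trafd1 overlapped at -0.38.

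Much of the set was silent in this line. The 9 members Oas2, Oas3, Mx1, Parp12, Cmpk2, Samd9l, Rtp4, Ifi44 and Gbp2 had no count in any of the 4 MPC-11 libraries, which allows up to 3 counts in each. Members without a count numbered 19 and 18 in the vector libraries and 10 and 17 in the guide libraries. The other untested members, Ifih1, Ifit3, Mx2, Usp18, Xaf1, Herc6, Trim21, Eif2ak2 and Nmi, had counts in 1 or 2 libraries, which were guide libraries for all but Xaf1, seen in 1 library of each arm. The highest of these, Nmi in the second guide library, reached 6.41 CPM. In this line the T cell sum was under 1 CPM, all 8 NK cell markers were at 0, and Lyz2, C1qa, C1qb, C1qc, Csf1r, Adgre1, Cd14 and Vcam1 had no count in any of its libraries. The macrophage and monocyte list still summed to 1412 and 1008 CPM with the guide and 1234 and 1318 CPM with vector, nearly all of it Cd68 and Hmox1. The B cell sum was 570 and 567 CPM with the guide and 278 and 167 CPM with vector, and its part in the values above was not tested. Of the 9 B cell markers, 6 were at 0 in each vector library and the first guide library and 8 in the second guide library. Cd79b alone had counts in all 4 and was the whole sum of the second guide library, so the sum does not stand for the list.

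In MM.1S the largest gap was in PARP9, at 14.3 and 19.1 CPM with the guide and at 0.700 and 0 CPM with empty vector. Its log2 fold change was 5.52 ± 1.15 (edgeR adjusted p = 0.259, DESeq2 adjusted p = 2.43e-06, range over alternatives 2.43e-06 to 0.999). All 4 genes of the PARP and DTX3L group were wholly higher, as were 22.4% of all genes. DTX3L was at 16.5 and 20.2 CPM against 6.25 and 8.97 CPM (1.27 ± 0.37). PARP12, which carries zinc fingers that bind viral RNA, was at 15.7 and 16.9 CPM against 9.01 and 3.06 CPM (1.43 ± 0.55), and PARP14 at 35.7 and 59.2 CPM against 32.5 and 24.0 CPM (0.75 ± 0.33).

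UBA7, called by DESeq2 as well (adjusted p = 0.0202, range 0.00886 to 0.999), was at 52.1 and 66.6 CPM against 29.8 and 16.6 CPM (1.35 ± 0.34). ISG15 was at 40.7 and 32.1 CPM against 30.7 and 21.4 CPM (0.48 ± 0.30), while USP18 and HERC6 overlapped. ZNFX1 was at 57.7 and 65.1 CPM against 35.7 and 21.5 CPM (1.10 ± 0.31). OAS2 was wholly higher at 38.6 and 46.9 CPM against 32.3 and 25.1 CPM (0.57 ± 0.27). ADAR was wholly higher at 0.22 ± 0.18, SAMD9L wholly lower at -0.68 ± 0.31, and ISG20, OAS3 and EIF2AK2 differed by -0.01 to 0.08.

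IFIT3 was at 12.2 and 12.6 CPM against 3.64 and 5.86 CPM (1.38 ± 0.45), and IFIT1 and IFIT2 overlapped at 5.23 CPM or less. The sensors DHX58 and IFIH1 were wholly higher, DHX58 at 8.54 and 10.3 CPM against 3.64 and 0 CPM (2.36 ± 1.49) and IFIH1 at 55.6 and 64.1 CPM against 50.6 and 40.1 CPM (0.40 ± 0.24), while DDX58 overlapped. MX1, a dynamin-like GTPase that traps viral nucleocapsids, was at 86.0 and 99.8 CPM against 59.4 and 48.1 CPM (0.79 ± 0.23, edgeR adjusted p = 0.34). MX2 was wholly lower at -0.28 ± 0.42, GBP2 wholly higher at 0.73 ± 0.45, GBP3 and CMPK2 overlapped, and RSAD2 had counts in 1 library of each arm at under 2 CPM and was not tested.

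BST2 was at 780 and 676 CPM against 723 and 715 CPM, a difference of 0.02 ± 0.17. TAP1 was at 244 and 232 CPM against 278 and 222 CPM, TAP2 was wholly lower at -0.50 ± 0.25, and STAT2 was at 141 and 154 CPM against 192 and 125 CPM (-0.10 ± 0.26). XAF1, a pro-apoptotic gene, was at 8.07 and 10.7 CPM against 2.43 and 0 CPM (2.94 ± 1.46). RTP4, TRAFD1 and TRIM21 were wholly higher at 0.31 to 0.58, TRIM25 was wholly lower at -0.33, and IFI35, IFI44 and NMI overlapped. In this line 1 vector library decided much. Without the first one, 7 members passed edgeR (DHX58, MX1, UBA7, PARP9, PARP12, ZNFX1 and XAF1) when 7.26% of all genes did, and the members' median was 0.77 in place of 0.38. Without the second vector library PARP9 passed (adjusted p = 0.00826).

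Of the 20 members tested in all 3 comparisons, 8 were higher in the targeted libraries of each (40%, against 16.3% of 8046 genes). Lower in each were 0 (16.6% of genes). The 8 were DHX58, IFI35, DTX3L, PARP9, ZNFX1, ADAR, DDX58 and UBA7. The 20 are limited by the MPC-11 filter, which a gene can pass through its high group alone. They do not stand for the set. For DTX3L, PARP9 and ZNFX1 the targeted libraries lay wholly above the controls in all 3 (15% of the 20, against 1.48% of genes). PARP9 and ZNFX1 had an unadjusted edgeR p under 0.05 in each, as did 10 of the 8046 genes (0.124%). The size differed from one comparison to the next. ZNFX1 differed by 6.19 ± 0.78 in spleen, 1.27 ± 0.43 in MPC-11 and 1.10 ± 0.31 in MM.1S. PARP9 differed by 1.01 ± 0.40, 1.14 ± 0.47 and 5.52 ± 1.15, and UBA7 by 0.23 ± 0.52, 5.51 ± 0.84 and 1.35 ± 0.34. In a joint fit of the 8 splenic and MPC-11 libraries, the spleen-minus-MPC-11 difference passed edgeR's adjusted threshold for 0 of the 30 members with a count in MPC-11 and 0 of 12993 genes. At an unadjusted p under 0.05 there were 8 of all 39 members, each of them among the 30, against 6.21% of genes. Those 12993 genes also include genes without a count in MPC-11, so their share is to be set beside the 39. The other 9 members have no MPC-11 change to compare. For Znfx1 that difference was 4.94 ± 0.88 (adjusted p = 0.207) and for Uba7 -5.28 ± 1.01 (adjusted p = 0.245).

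**Figure D3:**
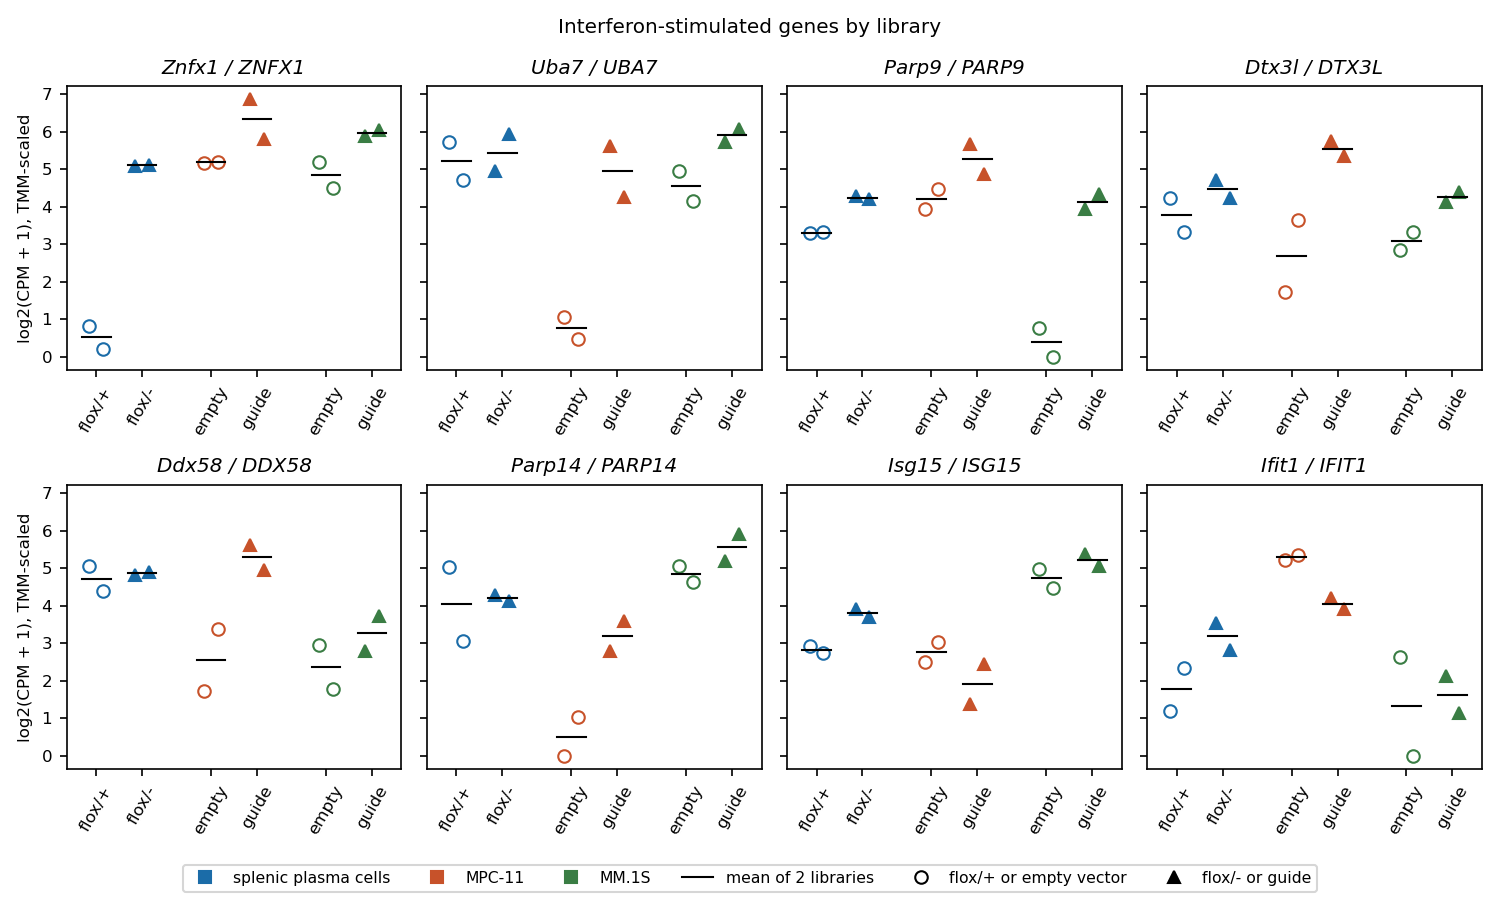
Log2(CPM + 1), TMM-scaled within each comparison, of 8 members in each library (triangles, flox/- or guide; open circles, flox/+ or empty vector; bars, mean of 2 libraries). Znfx1, Parp9 and Dtx3l lie above their controls in all 3 comparisons, Uba7 and Parp14 in both cell lines, and Ddx58 in MPC-11 alone. Isg15 and Ifit1 are lower with the guide in MPC-11 and higher with the flox/- label in spleen.

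Levels across cell types were set on one scale for the 10 mouse libraries. Znfx1 was at 71.5 CPM in follicular B cells and at 18.4 CPM in bone marrow plasma cells. It was at 1.20 and 0.257 CPM in splenic plasma cells labelled flox/+ and at 53.2 and 54.0 CPM in those labelled flox/-. In MPC-11 it was at 22.2 and 21.8 CPM with vector and at 72.4 and 33.5 CPM with the guide. The flox/+ libraries thus lay below all 8 others, the bone marrow plasma cells included, and the flox/- libraries lay below the follicular B cells. Uba7 was at 79.3 CPM in follicular B cells, 79.4 CPM in bone marrow plasma cells and 41.2 to 95.7 CPM in the 4 splenic libraries, and the MPC-11 vector libraries, at 0.683 and 0.236 CPM, stood apart from all of them, with 30.0 and 11.1 CPM in the guide libraries.

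Ddx58 showed the same order, at 32.5 to 78.8 CPM in the 6 libraries that are not MPC-11, at 1.47 and 5.77 CPM with vector in MPC-11 and at 30.1 and 18.5 CPM with the guide. The guide libraries of MPC-11 lay below the range of the other cells for both genes. The 39 members summed to 1538 CPM in follicular B cells, 1476 CPM in bone marrow plasma cells, 1967 and 1814 CPM with the flox/- label and 1549 and 1566 CPM with flox/+. In MPC-11 they summed to 566 and 594 CPM with vector and 877 and 738 CPM with the guide, and in MM.1S, on its own scale, to 2666 and 2425 CPM against 2835 and 2881 CPM. A few genes make up most of each sum. Per gene length, in the authors' log2 FPKM, Isg20 at 8.59 and Bst2 at 8.56 led in splenic cells labelled flox/+, Bst2 at 7.99 in MPC-11 vector cells and BST2 at 9.46 in MM.1S vector cells, each a mean of 2 libraries.

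**Figure D4:**
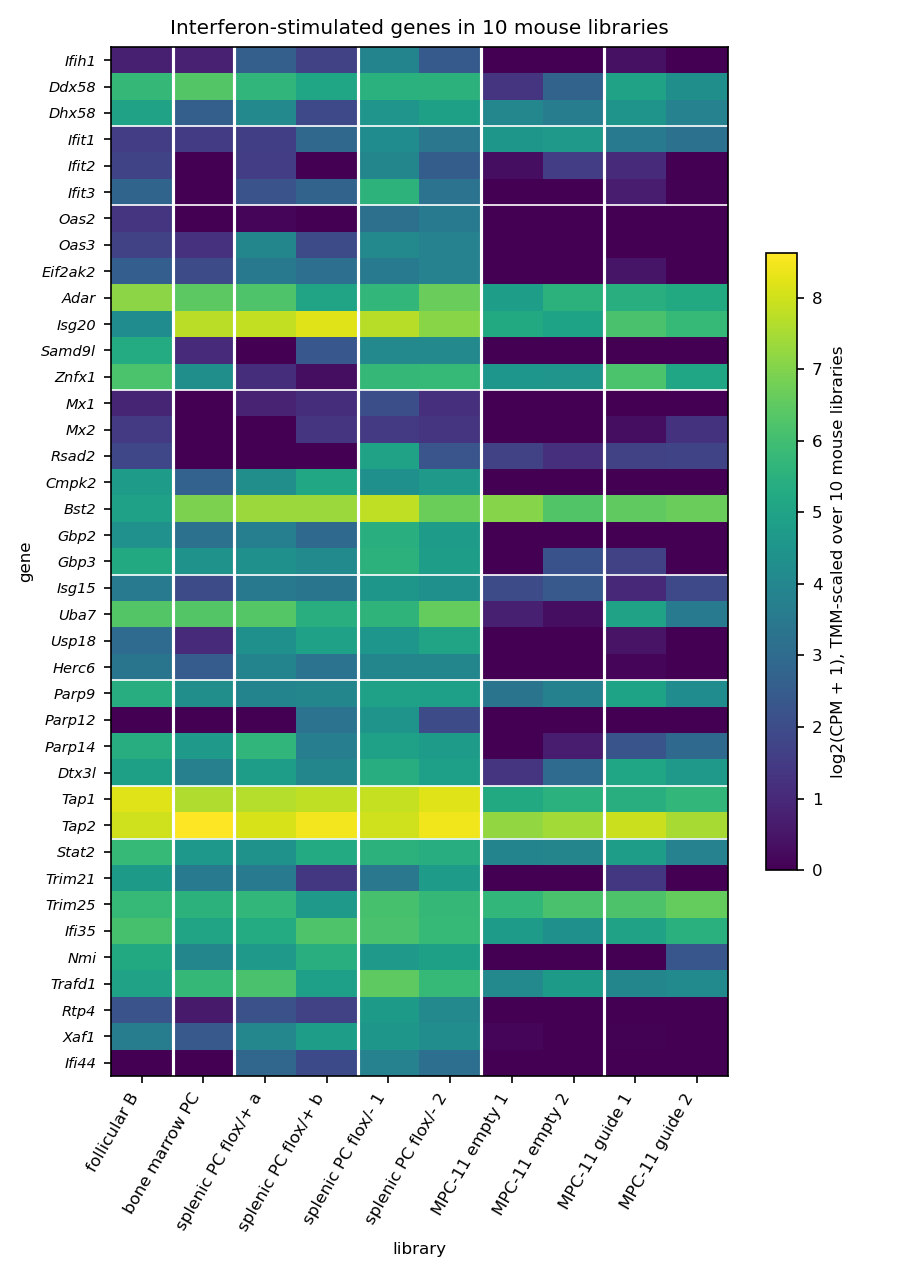
Log2(CPM + 1), TMM-scaled over the 10 mouse libraries, for the 39 members (rows, by role) in each library (columns). Dark cells in the MPC-11 columns are the members with few or no counts, 19 and 18 without a count with empty vector and 10 and 17 with the guide.

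The references, follicular B cells and plasma cells of bone marrow, have 1 library each and allow no test, and their differences have no replicate check. Of the 39 members, 30 were lower in the plasma cell library (76.9%, against 51.7% of 13251 genes) and 7 higher. Ifi44 and Parp12 had no count in either. Samd9l was at 38.8 CPM in follicular B cells and at 1.09 CPM in plasma cells, and Isg15 at 10.7 CPM and 2.90 CPM. Ifit2, Ifit3, Oas2, Rsad2, Mx1 and Mx2 had no count in the plasma cells, where up to 3 counts remain possible, and 34 to 233 counts in the B cells. Isg20 and Bst2 went the other way, at 211 and 119 CPM in plasma cells and 17.5 and 29.3 CPM in B cells.

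Of 43 other genes of the interferon pathway, 41 of which have a human entry, 28 were tested in spleen, 24 in MPC-11 and 29 in MM.1S. Those that were higher numbered 18, 16 and 17 (54.3%, 48.5% and 50.7% of all genes tested were higher), and those lower 10, 8 and 12. Past edgeR's threshold were 0 in each. DESeq2 called 2, 4 and 1 higher, against 3.82%, 1.08% and 1.46% of all genes, and none lower. Genes for the interferons themselves gave almost no reads. None of the ligand genes passed the filter in any comparison, and Ifng, the gene for interferon gamma, had counts in the second flox/- library at 0.408 CPM and in both MM.1S guide libraries at 0.155 and 0.879 CPM.

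No type I receptor gene was wholly higher in any comparison. Ifnar1 differed by -0.09 ± 0.37 in spleen, -0.06 ± 0.39 in MPC-11 and -0.26 ± 0.19 in MM.1S, and Ifnar2 by -0.43 ± 0.47, -0.61 ± 0.32 and -0.04 ± 0.21. With library size alone as the scaling, both were above 0 in spleen. The gamma receptor chain Ifngr1 was wholly higher in all 3, at 87.9 and 26.4 CPM against 18.2 and 17.0 CPM in spleen (1.69 ± 0.61), at 0.30 ± 0.45 in MPC-11 and at 57.9 and 47.2 CPM against 29.4 and 30.3 CPM in MM.1S (0.82 ± 0.24). Ifngr2 was wholly higher in spleen at 1.30 ± 0.52. The kinase gene Jak1 was wholly higher in spleen, at 125 and 179 CPM against 89.8 and 72.2 CPM (0.91 ± 0.34). Jak1 had no count in any MPC-11 library, while the other 6 mouse libraries held it at 102 to 470 CPM. Jak2 was higher with the guide in MPC-11, at 253 and 196 CPM against 57.9 and 98.2 CPM (1.53 ± 0.36, DESeq2 adjusted p = 0.013, range 0.013 to 1.00).

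IRF9, the DNA-binding partner of STAT2, differed by -0.10 ± 0.30, 0.55 ± 0.39 and 0.56 ± 0.24 in spleen, MPC-11 and MM.1S. It was wholly higher with the guide in both lines and overlapped in spleen, where it was above 0 with library size alone. Other interferon regulatory factors did move by DESeq2. In spleen Irf8 was at 178 and 157 CPM with the flox/- label and at 60.7 and 69.7 CPM with flox/+ (1.36 ± 0.29, DESeq2 adjusted p = 0.00649, range 0.00649 to 0.901). Irf7, which amplifies type I interferon induction, was at 233 and 107 CPM against 59.1 and 58.3 CPM (1.53 ± 0.44, DESeq2 adjusted p = 0.0457, range 0.0457 to 1.00). Irf8 had no count in MPC-11. Irf7 differed by -0.56 ± 0.53 in MPC-11 and IRF7 by 0.07 ± 0.29 in MM.1S.

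In MPC-11 Irf1 was at 219 and 163 CPM against 82.6 and 68.9 CPM (1.33 ± 0.32, DESeq2 adjusted p = 0.0115, range 0.0115 to 1) and Irf2 at 70.0 and 76.1 CPM against 30.0 and 25.3 CPM (1.40 ± 0.34, DESeq2 adjusted p = 0.0206, range 0.0206 to 1). Irf5 was higher at 0.81 ± 0.32. Of the 24 pathway genes tested there, the largest difference was that of Tmem173, which encodes STING, the adaptor of cytosolic DNA sensing, at 119 and 205 CPM against 29.5 and 20.5 CPM (2.69 ± 0.41, DESeq2 adjusted p = 1.24e-07, range 1.24e-07 to 0.819). In MM.1S TMEM173 was lower, at 1.19 and 1.02 CPM against 9.99 and 2.85 CPM (-2.53 ± 0.84, edgeR adjusted p = 0.379), and in spleen it overlapped at 0.13 ± 0.33. Also in MM.1S, IKBKE, a kinase that activates IRF3 and IRF7, was at 326 and 343 CPM against 211 and 217 CPM (0.65 ± 0.18, DESeq2 adjusted p = 0.0316, range 0.0316 to 1.00). MYD88 was wholly higher at 0.52 ± 0.20, and TLR9 was at 17.1 and 6.80 CPM against 1.54 and 0 CPM.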

How the data were processed

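RNA sequencing libraries were analysed from the deposited tables. Per the submitters' processing notes, Subread 1.6.0, featureCounts and limma were used with builds mm10 and hg38; order, annotation, strand setting and filters are not given in the sources used here. Per the labels' protocols, libraries were made from column-purified RNA with a Nextera kit. The authors deposited whole-number counts per gene without normalization (27179 mouse and 28395 human entries; entries without a symbol, at most 0.306% of a library, were left out) and, per library, log2 FPKM values for 14704 mouse or 12731 human genes, whose offset is not described. The 2 flox/+ count columns carry the same name and were called a and b.

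Each comparison was fitted on its 4 libraries with edgeR 4.0.16 (R 4.3.3): TMM scaling, filterByExpr with a minimum count of 10, quasi-likelihood F test, two-sided, Benjamini-Hochberg adjustment over all genes tested, threshold 0.05. The SE is the log2 fold change divided by the square root of F. With 2 libraries per group there were 2 residual degrees of freedom. Alternatives were DESeq2 1.42.0, 2 other scalings, no filter, no immunoglobulin genes, a replicate block, leaving out each library, all 10 mouse libraries in one fit and the deposited log2 FPKM with limma 3.58.1. The fitting code was tested on simulated data. Chi-square per degree of freedom between libraries of a group was 39.2 to 277, so none were duplicates; floors of 3 counts cover counting error only.

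The 39 members, the 43 other pathway genes and the marker lists were chosen with earlier results of these data known, so no list is independent evidence, and they are described by counts and medians beside those of all genes. Per-library values are printed for members past a threshold in edgeR or DESeq2, for the 8 with the largest change and no overlap in a comparison, and for 6 named for their role; pathway genes are named at an unadjusted edgeR p under 0.05 or for their role, except 1 that is not reported here. Others named with values were chosen after these were seen.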

Additional observations from a re-analysis of the deposited data

Results flagged for a closer look

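Some members moved in opposite directions in different comparisons, with no overlap between targeted and control libraries in either. Isg15 differed by 1.08 in spleen and 0.48 in MM.1S but by -0.96 in MPC-11, Ifit1 by 1.64 in spleen and -1.29 in MPC-11, and Isg20 by -0.62 in spleen and 0.86 in MPC-11 (log2 fold changes; with library size alone as the scaling, no member was lower in spleen). For these mouse pairs the difference itself, spleen minus MPC-11, was tested in one edgeR fit of 8 libraries and did not pass: 2.04 ± 0.91 for Isg15 (adjusted p = 0.822), 2.92 ± 0.92 for Ifit1 (adjusted p = 0.614) and -1.48 ± 0.46 for Isg20 (adjusted p = 0.607).

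SAMD9L differed by 2.93 in spleen and -0.68 in MM.1S, TRIM25 by 0.68 in spleen and 0.49 in MPC-11 but -0.33 in MM.1S, and TAP2 by 0.42 in MPC-11 and -0.50 in MM.1S. The differences between mouse and human libraries, that of Isg15 between MPC-11 and MM.1S included, were not tested.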

How the results depend on the processing

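No count or median of the members changed direction under any alternative run. Members called went from 0 to 4, 3 and 2 with DESeq2 in spleen, MPC-11 and MM.1S (650, 169 and 366 of all genes), to 1 in spleen with all 10 mouse libraries in one fit (5 of all genes), and without a filter on low counts to 1 in MPC-11 and 2 in MM.1S (32 and 289 of all genes). In MPC-11, where more genes are then counted, 23 of 30 members were higher without the filter (76.7%, against 48.3% of all genes). With DESeq2 it was 23 of 30 (76.7%, against 48.1%), and in the fit of 10 libraries 23 of 39 (59.0%, against 40.1%). With log2 FPKM it was 32. Those 32 include 9 without a count in MPC-11, which say nothing of direction, and 57.2% of all genes were higher on that scale. The median was 0.79 without the filter and 0.79 with DESeq2. Both take in members that the filter left out, whose counts lay in 1 or 2 libraries, guide libraries for all but Xaf1. Where these members were seen set their direction. Library size alone gave a splenic median of 1.55. Leaving out 1 library gave splenic medians of 0.53 to 1.18, MPC-11 medians of 0.48 to 0.83 with 0 to 1 members called, and MM.1S medians of 0.34 to 0.77 with 0 to 7 called; where an arm keeps 1 library it is assumed to vary like the others.

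Same-numbered libraries deviated together with correlations of -0.125 in MPC-11 and 0.153 in MM.1S, and with 2 pairs the numbers are not shown to pair the samples. With the replicate block, members called were 0 in MPC-11 and 1 in MM.1S (PARP9, 5.90, adjusted p = 0.00926), where all genes called went from 1 to 208. A crossed pairing in MPC-11, chosen after seeing the data, called 0 members. No paired analysis was possible in spleen because both flox/+ columns carry the same name.

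Some single genes changed sign. In spleen library size alone gave Parp14 0.67, Xaf1 0.87, Ifnar1 0.78, Ifnar2 0.43 and Irf9 0.79, and log2 FPKM gave Mx1 -0.13. In MM.1S IFIT1 was 1.76 with the replicate block and 0.99 with log2 FPKM. Leaving out 1 library gave these ranges in spleen: Parp12 -0.51 to 10.69, Bst2 -0.62 to 0.46, Uba7 -0.37 to 0.82, Xaf1 -0.39 to 0.44, Ifnar2 -1.15 to 0.038, Parp14 -0.87 to 1.24, Ifnar1 -0.42 to 0.32, Irf9 -0.27 to 0.087 and Ddx58 -0.20 to 0.48. In MPC-11 they were Bst2 -0.42 to 0.30, Ifit2 -8.15 to 1.07, Ifnar1 -0.61 to 0.33 and Stat2 -0.049 to 0.93. In MM.1S they were IFIT1 -1.22 to 8.52, STAT2 -0.40 to 0.24, TAP1 -0.25 to 0.10, IFNAR2 -0.18 to 0.081, BST2 -0.090 to 0.11 and IRF7 -0.27 to 0.49. The cause was not tested.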
